A study of Rattus norvegicus with 2 samples.

Results

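The miRNAs that mark striated muscle, namely the families miR-1, miR-133, miR-206, miR-208 and miR-499, were examined in exosomes that neonatal rat cardiomyocytes released into culture medium. Members were the miRNAs counted under the mouse names miR-1a, miR-1b, miR-133a, miR-133b, miR-206, miR-208a, miR-208b and miR-499, with either arm of the hairpin, and 14 of the 635 miRNAs in the count table carried such a name. Of these, 7 are the main arms, the strands usually loaded into the silencing complex: miR-1a-3p, miR-133a-3p, miR-133b-3p, miR-206-3p, miR-208a-3p, miR-208b-3p and miR-499-5p. Cardiomyocytes came from the hearts of neonatal Wistar rats aged 1 to 2 days, were freed with collagenase II and trypsin, and were enriched by letting other cells adhere before plating with bromodeoxyuridine, which limits the growth of dividing cells. After serum starvation the cultures received 0 μmol/L angiotensin II (Ang II) for the normal exosomes (NC-Exo) or 1 μmol/L Ang II, a peptide hormone that drives cardiomyocyte hypertrophy, for 48 h for the hypertrophic exosomes (HC-Exo). Exosomes were taken from the medium with an isolation reagent, and 1 small RNA library was sequenced for each condition, so that no difference given here has a replicate check. The comparison asks whether the muscle miRNA load of exosomes differed between the hypertrophic and the normal cultures.

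These families are made mainly in heart and skeletal muscle, where they tune the balance between growth, division and the contractile program. The genes of miR-1 and miR-133 lie side by side and are transcribed together, miR-1 favouring differentiation and miR-133 restraining growth and proliferation of muscle cells. miR-206 shares its seed with miR-1 and is best known from skeletal muscle, whereas miR-208a, miR-208b and miR-499 are carried in introns of the myosin heavy chain genes Myh6, Myh7 and Myh7b and take part in the choice between fast and slow myosins.

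The mature sequences show which members recognise the same targets and which could exchange reads. They are the rat entries of RefSeq on the assembly GRCr8, written 5′ to 3′, with the seed (bases 2 to 8) in capitals. Of the 14 members, 10 had a rat entry of the same name among 724 mature entries. The counts carry mouse names, under which miR-1a has no rat namesake, so both rat miR-1 sequences are shown and which of them the miR-1a-3p count holds was not tested.
rno-miR-1-3p: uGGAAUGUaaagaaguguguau
rno-miR-1b: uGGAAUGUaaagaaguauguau
rno-miR-206-3p: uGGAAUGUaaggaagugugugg
These 3 entries share the seed GGAAUGU, and no other of the 724 entries has it. Counting positions from 1 at the 5′ end, rno-miR-1b differs from rno-miR-1-3p by A17G, and rno-miR-1-3p differs from rno-miR-206-3p by A11G, A21G and U22G.
rno-miR-133a-3p: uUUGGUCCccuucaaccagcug
rno-miR-133b-3p: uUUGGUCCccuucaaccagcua
The miR-133 pair is alike in 21 of 22 bases and differs by G22A at its 3′ end, so that the split of reads between miR-133a-3p and miR-133b-3p is uncertain.
rno-miR-208a-3p: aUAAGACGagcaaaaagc
rno-miR-208b-3p: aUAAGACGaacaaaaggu
rno-miR-499-5p: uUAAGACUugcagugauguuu
The RefSeq entries of the miR-208 pair are 18 bases long and differ by G10A, A16G and C18U. The seed of miR-499-5p differs from theirs in its last base, and the 3 entries share bases 2 to 7.

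By position in GRCr8, miR-1-3p (chr18:2160339-2160360) and miR-133a-3p (chr18:2157886-2157907) lie within the gene Mib1 on the minus strand. The other rat miR-1 sequence, miR-1b (chr3:187864736-187864757), lies on the plus strand outside any protein-coding gene, with no other miRNA gene listed in RefSeq within 25 kb. The miR-206-3p (chr9:30590747-30590768) and miR-133b-3p (chr9:30594629-30594650) sequences are neighbours on the plus strand, outside any protein-coding gene. Within Myh6 and Myh7 on the minus strand lie miR-208a-3p (chr15:32395568-32395585) and miR-208b-3p (chr15:32421648-32421665), and miR-499-5p (chr3:164570616-164570636) lies within Myh7b on the plus strand. The hairpin of miR-208a is shown because its 2 arms had reads of like number, unlike those of the other muscle hairpins, with its 5p and 3p arms in capitals.
Mir208a hairpin (chr15:32395552-32395634): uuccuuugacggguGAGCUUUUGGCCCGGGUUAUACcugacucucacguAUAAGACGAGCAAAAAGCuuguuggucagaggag

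The NC-Exo library held 102608 miRNA reads and the HC-Exo library 133155, so that 1 read stands for 9.75 and 7.51 reads per 1000000 miRNA reads (RPM), respectively. Intervals are 95% exact (Clopper-Pearson) intervals. They cover only the counting error of reads, not the spread between cultures or between libraries. PCR copies of a molecule are counted as separate reads, so the intervals may be too narrow for molecules. A two-sided exact binomial test was run on the reads of the 340 miRNAs with a sum of at least 10 reads, 11 of the 14 members among them, with Benjamini-Hochberg adjustment over the 340. A miRNA was called at an adjusted p under 0.05 with a log2 HC-Exo/NC-Exo ratio of at least 1 in size, and the test compares 2 libraries, not the conditions.

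Muscle miRNAs made up 16.9% of all miRNA reads in NC-Exo (16.7 to 17.2%) and 18.5% in HC-Exo (18.3 to 18.7%). Nearly all of this was miR-1a-3p, which held 95.6% of the muscle reads in NC-Exo against 94.5% in HC-Exo. The other 13 members together had 766 reads, or 0.747% of the library (0.695 to 0.801%), in NC-Exo against 1364 reads, or 1.02% (0.971 to 1.08%), in HC-Exo, giving a log2 ratio of 0.46 (0.33 to 0.59). The muscle share was thus larger in HC-Exo, by 0.13 on the log2 scale for all members, although this value was 0.00 with upper-quartile scaling, and by more without miR-1a-3p. In bulk exosome RNA, the number of cells of a type, the RNA per cell and the release of exosomes cannot be told apart.

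The order of the 7 main arms was the same in both libraries. In NC-Exo, miR-1a-3p ranked 1 among all miRNAs, miR-133a-3p 39, miR-133b-3p 58, miR-208b-3p 116, miR-206-3p 219, miR-499-5p 254 and miR-208a-3p 265. In HC-Exo the ranks of miR-1a-3p and miR-133a-3p were again 1 and 39, that of miR-133b-3p was 49, and those of miR-206-3p, miR-499-5p and miR-208a-3p were 135, 173 and 209, with miR-208b-3p ahead of these 3. The 3 lowest were not separated by counting error in NC-Exo, where the intervals were 74.6 to 229 RPM for miR-206-3p, 46.7 to 179 for miR-499-5p and 40.1 to 166 for miR-208a-3p. In HC-Exo, miR-206-3p at 324 to 555 RPM stood above miR-208a-3p at 115 to 268 RPM and overlapped with miR-208b-3p at 383 to 631 RPM, from which it was separate in NC-Exo (421 to 720 RPM for miR-208b-3p).

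**Figure D1:**
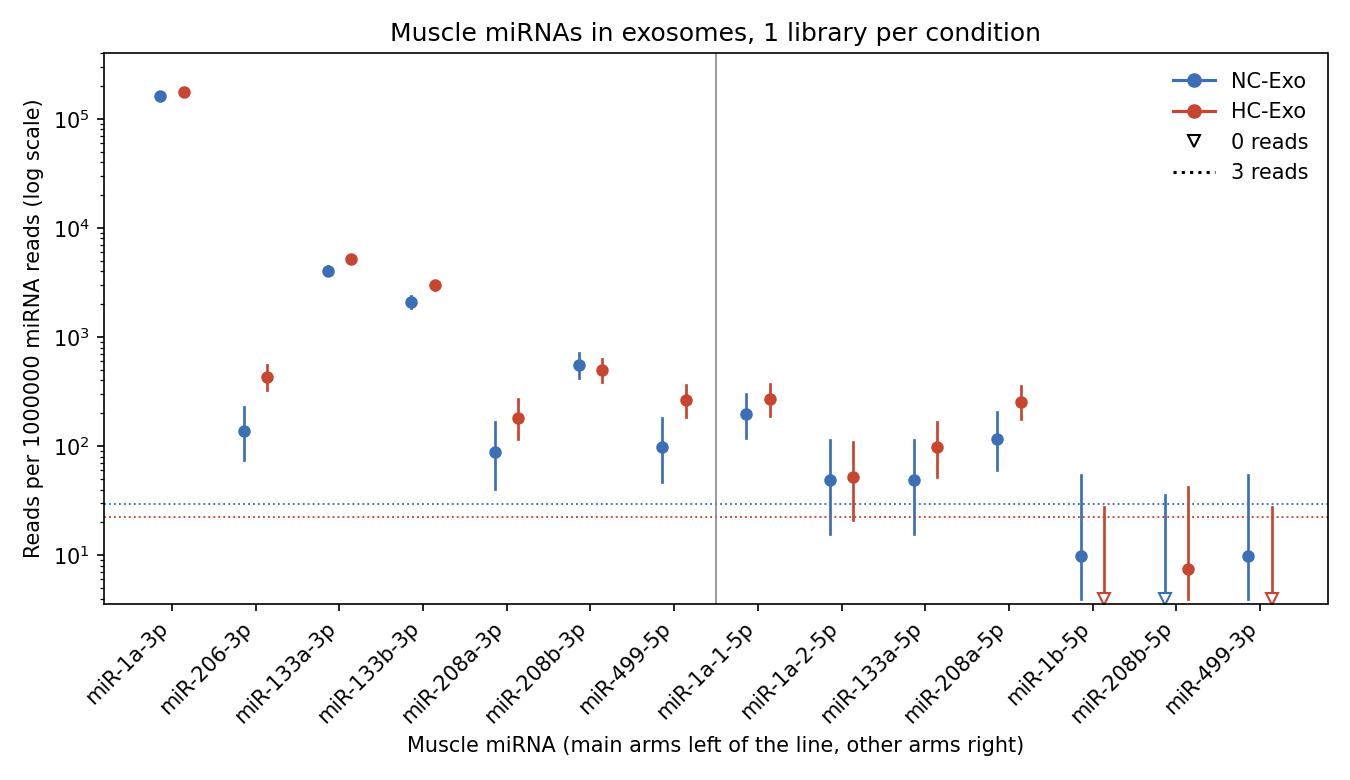
Level of each of the 14 muscle miRNAs in NC-Exo (blue) and HC-Exo (red), in reads per 1000000 miRNA reads on a log scale, 1 library per condition. Points are the values, bars the 95% exact intervals, open triangles 0 reads and dotted lines the level of 3 reads in each library; miR-1a-3p stands at 161917 and 174766 RPM, far above the other members, and 3 arms at the right have at most 1 read in either library.

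Of the members with the miR-1 seed, mmu-miR-1a-3p, the most abundant miRNA of cardiomyocytes, had 16614 reads (161917 RPM) in NC-Exo against 23271 reads (174766 RPM) in HC-Exo. Its ratio was 1.08 (1.06 to 1.10), a log2 ratio of 0.11 (exact binomial test, adjusted p = 5.75e-12). HC-Exo was the higher library, but the log2 ratio was at the median of the 340 tested miRNAs, 0.10, and was -0.01 with upper-quartile scaling (exact binomial test, adjusted p = 0.581). It ranked 168 of 340 by log2 ratio.

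For mmu-miR-206-3p, a skeletal muscle miRNA with little expression in the normal heart, 14 reads (136 RPM) were counted in NC-Exo against 57 reads (428 RPM) in HC-Exo. The ratio was 3.14 (1.73 to 6.10), a log2 ratio of 1.65 (95% interval 0.79 to 2.61; exact binomial test, adjusted p = 0.000451), and the miRNA was called. HC-Exo was the higher library, and the 2 intervals of the level did not overlap. miR-206-3p ranked 7 of 340 by log2 ratio, and it was 0.0136% of the library in NC-Exo against 0.0428% in HC-Exo. Its sequence differs from rno-miR-1-3p in 3 bases, and miR-1a-3p had 1187 times as many reads in NC-Exo and 408 times in HC-Exo. Whether any miR-1 reads were counted as miR-206-3p was not tested.

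The miR-133 pair, which acts on regulators of growth and of the cytoskeleton, was the next most abundant. mmu-miR-133a-3p had 417 reads (4064 RPM) in NC-Exo against 694 reads (5212 RPM) in HC-Exo, giving a log2 ratio of 0.36 (95% interval 0.18 to 0.54; exact binomial test, adjusted p = 0.000636). mmu-miR-133b-3p, the partner of miR-206 on chromosome 9, had 215 reads (2095 RPM) and 397 reads (2981 RPM), a log2 ratio of 0.51 (95% interval 0.27 to 0.76; exact binomial test, adjusted p = 0.000352). Both were higher in HC-Exo with intervals of the level that did not overlap, and neither reached the log2 limit of 1. Summed over the pair, to set aside the uncertain split, the level was 6159 RPM in NC-Exo against 8193 RPM in HC-Exo, a ratio of 1.33 (1.20 to 1.47).

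Among the miRNAs of the myosin genes, mmu-miR-499-5p, from the intron of Myh7b, had 10 reads (97.5 RPM) in NC-Exo against 35 reads (263 RPM) in HC-Exo. Its ratio was 2.70 (1.31 to 6.11), a log2 ratio of 1.43 (95% interval 0.39 to 2.61; exact binomial test, adjusted p = 0.0225), which was called. HC-Exo was the higher library. With upper-quartile scaling the log2 ratio was 1.31 and the call was lost (exact binomial test, adjusted p = 0.0504, from 0.0213 to 0.0504 over the 5 other scalings).

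mmu-miR-208a-3p, from Myh6, the main myosin of the adult rodent ventricle, had 9 reads (87.7 RPM) in NC-Exo against 24 reads (180 RPM) in HC-Exo, giving a log2 ratio of 1.04 (95% interval -0.12 to 2.33; exact binomial test, adjusted p = 0.211). mmu-miR-208b-3p, from Myh7, the fetal myosin gene of the rodent ventricle, had 57 reads (556 RPM) and 66 reads (496 RPM), a log2 ratio of -0.16 (95% interval -0.70 to 0.37; exact binomial test, adjusted p = 0.730). Neither was called, and the intervals of their levels in the 2 libraries overlapped. For miR-208b-3p, the only tested member with a lower value in HC-Exo, the interval of the ratio ran from 0.616 to 1.29, so that a 2-fold difference in either direction lay outside counting error. For miR-208a-3p, with 33 reads in all, a ratio as high as 5.02 or as low as 0.922 lay within it. With the miR-208 pair summed, the level was 643 RPM in NC-Exo against 676 RPM in HC-Exo, a ratio of 1.05 (0.756 to 1.47).

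**Figure D2:**
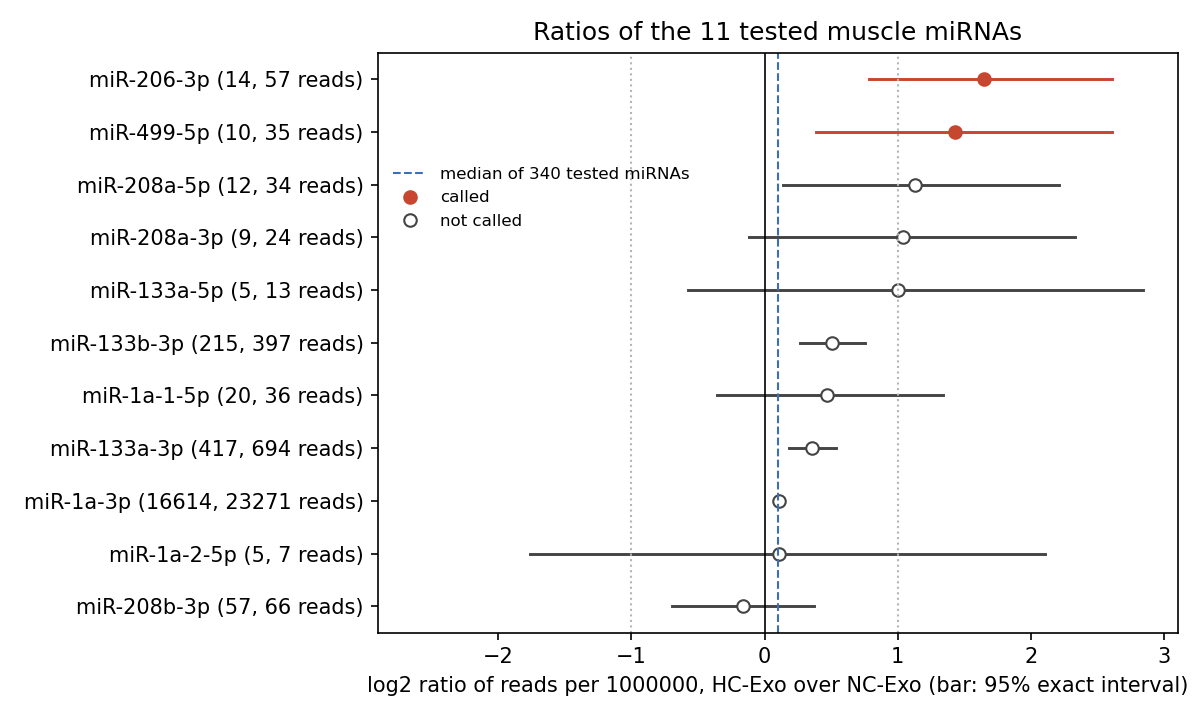
Log2 HC-Exo/NC-Exo ratio for the 11 tested muscle miRNAs, with the reads of NC-Exo and HC-Exo beside each name; bars are 95% exact intervals, filled red points were called, dotted lines mark the log2 limit of 1 in size and the dashed line the median of the 340 tested miRNAs, 0.10. miR-206-3p and miR-499-5p are the called members, and miR-1a-3p sits at the median with a narrow interval.

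The remaining 7 members are the opposite arms of these hairpins, which are usually degraded once the main arm is loaded. They held 44 reads in NC-Exo against 91 in HC-Exo, 0.0429% and 0.0683% of the libraries, a ratio of 1.59 (1.10 to 2.34). The most abundant of them in HC-Exo were miR-1a-1-5p, with 20 and 36 reads, and miR-208a-5p, with 12 and 34 reads. For miR-208a-5p the log2 ratio was 1.13 (interval 0.14 to 2.21, exact binomial test, adjusted p = 0.0677), and for miR-1a-1-5p it was 0.47 (interval -0.36 to 1.34, exact binomial test, adjusted p = 0.496). Neither was called. Counts were lower for miR-133a-5p, with 5 and 13 reads and a log2 ratio of 1.00, and for miR-1a-2-5p, with 5 and 7 reads and a log2 ratio of 0.11, and neither of these was called. Under the floor of 3 reads in both libraries, 29.2 RPM in NC-Exo against 22.5 RPM in HC-Exo, were miR-1b-5p and miR-499-3p, with 1 read in NC-Exo against 0 in HC-Exo, and miR-208b-5p, with 0 and 1. No ratio is given for these 3.

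Of the 11 tested members, 2 were called, both higher in HC-Exo. Of all 340 tested miRNAs, 16 (4.71%) were called and 9 (2.65%) were called higher in HC-Exo. The split of all calls depended on the scaling, with 5 of 12 higher under upper-quartile scaling and 12 of 18 with totals that leave out miR-1a-3p. Without the log2 limit, 5 members had an adjusted p under 0.05, all higher in HC-Exo, against 76 of the 340 (22.4%) in either direction and 47 (13.8%) higher in HC-Exo. With upper-quartile scaling 3 of these 5 members still had an adjusted p under 0.05, and miR-1a-3p and miR-499-5p did not. Of the 3, miR-133a-3p was near the limit (exact binomial test, adjusted p = 0.0482). The share of all 340 under that scaling is not given here, so this count cannot be set against it. Among the 135 miRNAs with at least 100 reads, 43.0% had an adjusted p under 0.05, and 3 of the 4 members with that many reads did. Below that number of reads lay miR-206-3p, with 71, and miR-499-5p, with 45. The part of depth in the main count of 5 was not tested. The median log2 ratio of the 11 members was 0.51 and that of the 340 was 0.10. A higher value in HC-Exo was found for 10 of the 11 members and for 56.2% of the 340. With upper-quartile scaling, which shifted each log2 ratio by -0.12, 8 of the 11 were higher, with a median of 0.39 against -0.03 over the 340, and miR-1a-3p and miR-1a-2-5p then had log2 ratios of -0.01.

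The spread between cultures is unknown here. When a coefficient of variation of 0.1 between cultures was assumed, 0 of the 340 miRNAs were called by the exact test of edgeR, with an adjusted p = 0.133 for miR-206-3p and 0.204 for miR-499-5p. At an unadjusted p under 0.05 with the log2 limit, a looser rule, it gave 28 miRNAs, 3 of them members, namely miR-206-3p, miR-499-5p and miR-208a-5p. With 0.2 these counts were 20 and 2, and with 0.4 they were 1 and 0.

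**Figure D3:**
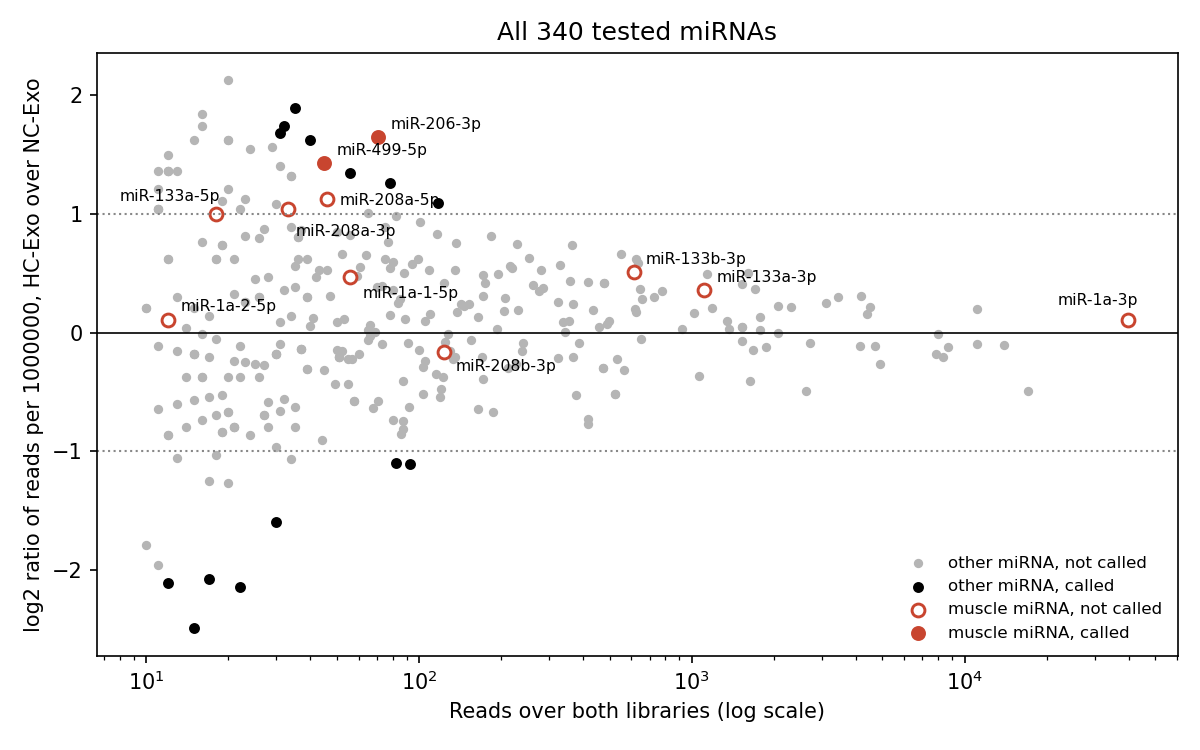
Log2 HC-Exo/NC-Exo ratio against the reads over both libraries (log scale) for the 340 tested miRNAs, with the 11 muscle miRNAs in red and called miRNAs filled; a library at 3 reads or fewer was set at 3 reads, and dotted lines mark the log2 limit of 1 in size. The called members, miR-206-3p with 71 reads and miR-499-5p with 45, lie among the low counts, and the abundant miR-1a-3p, miR-133a-3p and miR-133b-3p lie between 0 and 0.51.

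To place the calls, they were set beside miRNAs outside the list. The call nearest to the log2 limit among those higher in HC-Exo was miR-494-3p, with 31 and 86 reads and a log2 ratio of 1.10, and the nearest uncalled miRNA with a low p was miR-379-5p, with 23 and 59 reads and 0.98. By level in the 2 libraries, the miRNAs most like miR-206-3p were miR-199b-5p, with 13 and 43 reads, and miR-199a-5p, with 19 and 59 reads, both called as well. Those most like miR-499-5p were miR-106b-3p, with 8 and 32 reads, which was called, and miR-7a-5p, with 11 and 26 reads, which was not. Because the match used the levels in both libraries, like ratios follow from it and add no support to the calls. miR-133a-3p stood nearest to miR-351-5p, with 420 and 707 reads, and miR-133b-3p to miR-27a-3p, with 2027 and 3109 RPM. For miR-1a-3p there was no close miRNA, since the nearest, miR-126a-5p, had 8.65% of the reads in NC-Exo against 6.15% in HC-Exo and was lower in HC-Exo, unlike miR-1a-3p.

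Ratios between members do not depend on the scaling of the libraries. For each 1000 reads of miR-1a-3p, which has the same seed, there were 0.843 reads of miR-206-3p in NC-Exo against 2.45 in HC-Exo, a 2.91-fold difference (95% exact conditional interval 1.60 to 5.65) or 1.54 on the log2 scale. miR-206-3p was thus the higher relative to miR-1a-3p in HC-Exo, yet miR-1a-3p still had 408 times as many reads there, against 1187 times in NC-Exo. Against its chromosomal neighbour miR-133b-3p, miR-206-3p stood at 0.0651 reads for each read in NC-Exo against 0.144 in HC-Exo, a log2 difference of 1.14 (0.24 to 2.13). The interval of this difference lies above 0. With the miR-133 pair summed, to set aside the uncertain split, the difference was 1.24 (0.36 to 2.21). Both values rest on 14 reads of miR-206-3p in NC-Exo. The members were chosen with results known, so these intervals describe the 2 libraries and are not a test that the neighbours moved apart.

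miR-133a-3p stood at 25.1 reads per 1000 reads of miR-1a-3p in NC-Exo against 29.8 in HC-Exo, a log2 difference of 0.25 (0.07 to 0.43). By the RefSeq genes listed on GRCr8, these are neighbours only if the miR-1a-3p count holds rno-miR-1-3p. Within the miR-133 pair, miR-133b-3p stood at 516 and 572 reads per 1000 reads of miR-133a-3p, a difference of 0.15 (-0.15 to 0.46). The former ratio was higher in HC-Exo beyond counting error, and the latter was not. Among the myosin gene miRNAs, miR-208b-3p had 6.33 reads for each read of miR-208a-3p in NC-Exo against 2.75 in HC-Exo, a ratio of these of 0.434 (0.165 to 1.07). miR-499-5p had 1.11 and 1.46 reads for each read of miR-208a-3p, a difference of 0.39 (-1.31 to 2.07), and with the miR-208 pair summed the difference was 1.36 (0.19 to 2.64). At this depth a difference between miR-208a-3p and miR-208b-3p was not detectable, and that between miR-499-5p and the miR-208 pair rests on miR-208b-3p, which holds most of the pair's reads.

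**Figure D4:**
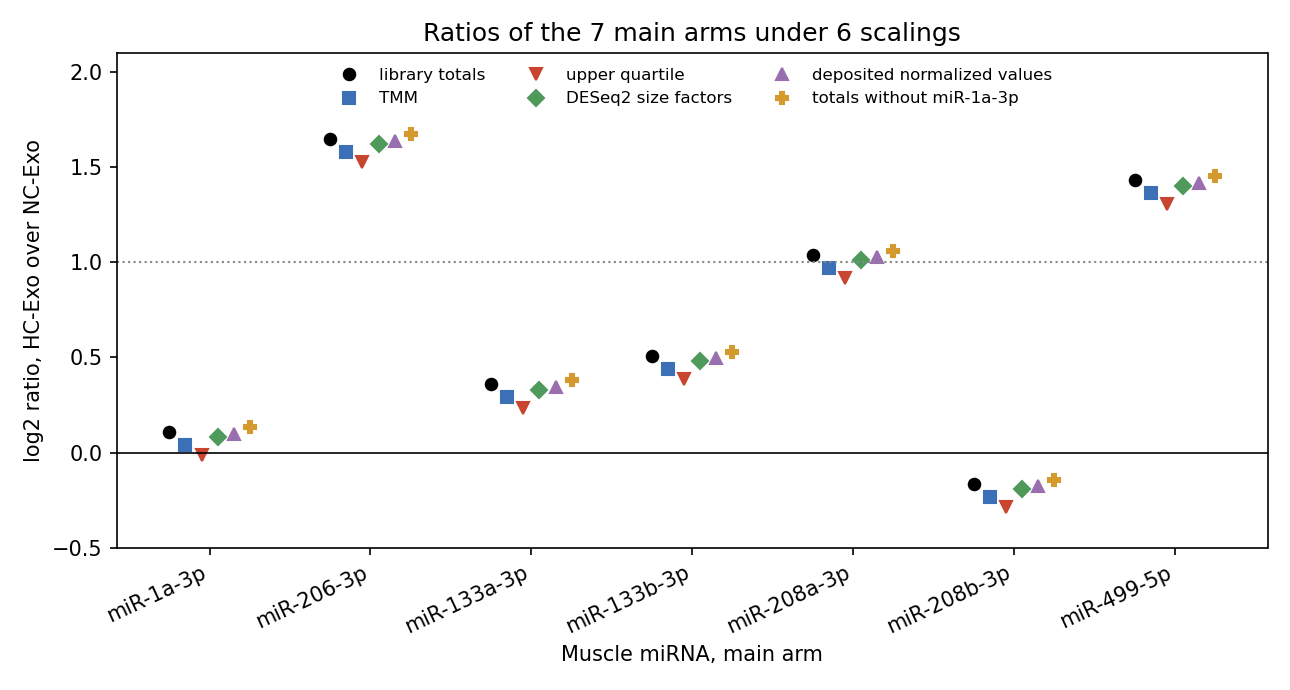
Log2 HC-Exo/NC-Exo ratio for the 7 main arms under library totals and 5 other scalings; the dotted line marks the log2 limit of 1. Each scaling shifts all log2 ratios by 1 constant, so their order is fixed; miR-208b-3p is below 0 under all 6, and miR-1a-3p is below 0, at -0.01, under upper-quartile scaling alone.

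A miRNA hairpin gives a 5p and a 3p arm, and the balance between them was compared for all 156 arm pairs with at least 10 reads by Fisher's exact test, two-sided, adjusted over the 156. Of these pairs, 5 (3.21%) differed between the libraries at an adjusted p under 0.05, and 0 of the 5 muscle hairpins did. With at least 50 reads, 5 of 112 pairs passed and 0 of 4 muscle hairpins. The muscle hairpins were strongly one-sided except for miR-208a. The 5p arm held 0.150% of the miR-1a reads in NC-Exo against 0.184% in HC-Exo, with miR-1a-1-5p and miR-1a-2-5p summed (Fisher's exact test, adjusted p = 0.811), and 1.18% and 1.84% of the miR-133a reads (Fisher's exact test, adjusted p = 0.811).

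For miR-499 the 5p arm was the main arm, with 90.9% of the reads in NC-Exo (58.7 to 99.8%) and 100% in HC-Exo (90.0 to 100%). For miR-208b it had 0 of 57 reads in NC-Exo, which allows up to 6.27%, and 1.49% in HC-Exo (0.0378 to 8.04%). In contrast, the 5p arm of miR-208a had 12 of its 21 reads in NC-Exo, 57.1% (34.0 to 78.2%), and 34 of 58 in HC-Exo, 58.6% (44.9 to 71.4%). The listed main arm of miR-208a, the 3p arm shown in capitals on the right of the hairpin, was thus not the more abundant by value in either library, although both intervals include an even split. By reads over both libraries the 3p arm was the less used, with 41.8%, against a median of 7.02% for the less used arm over the 156 pairs, of which 10 had 40% or more.

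**Figure D5:**
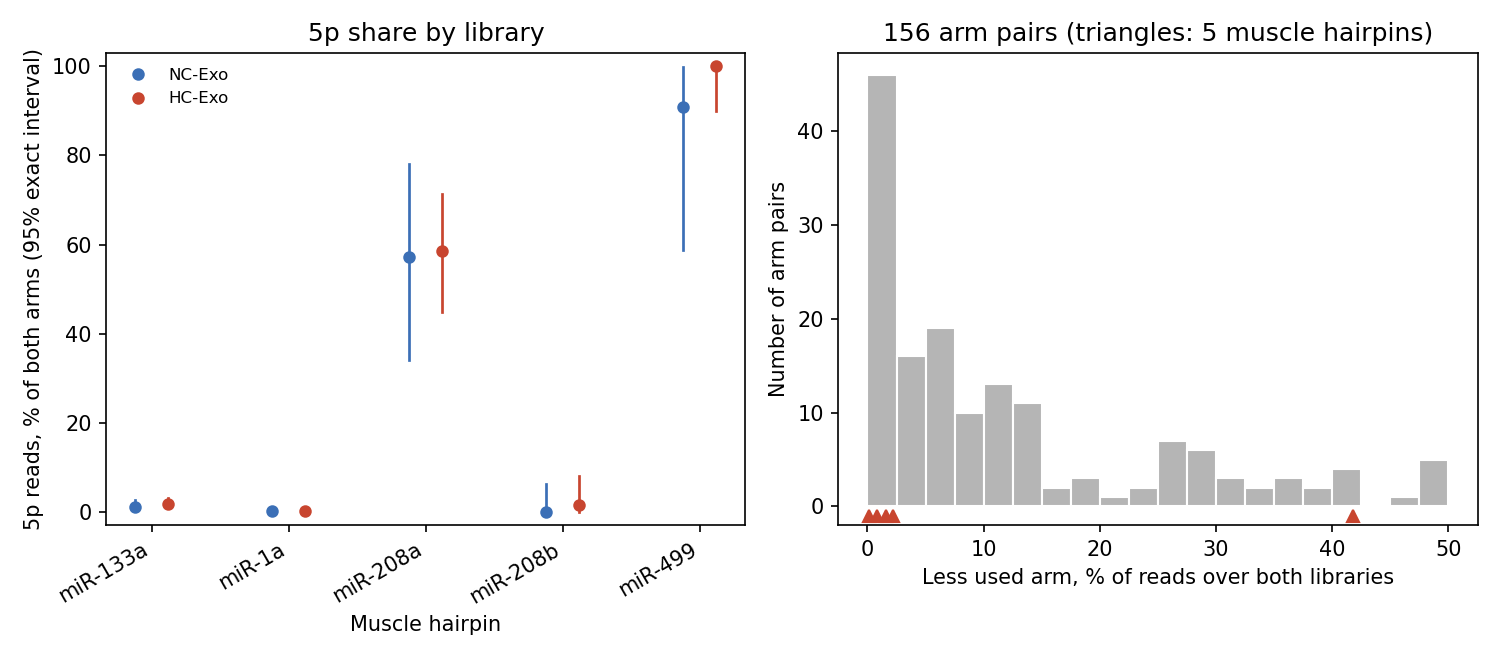
Left, share of reads on the 5p arm of the 5 muscle hairpins in NC-Exo (blue) and HC-Exo (red), in percent of both arms with 95% exact intervals; right, number of arm pairs by the share of the less used arm over both libraries for the 156 pairs, with triangles at the muscle hairpins. miR-208a stands at 41.8% on the right, and the other muscle hairpins are at 2.17% or less.

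Markers of other cells of the heart were read beside the muscle miRNAs. The 2 endothelial miRNAs, both arms of miR-126a, summed to 9.11% of the reads in NC-Exo against 6.68% in HC-Exo, and the lower sum in HC-Exo rests on miR-126a-5p. The other arm, miR-126a-3p, had 474 and 712 reads, a log2 ratio of 0.21 (interval 0.04 to 0.38, exact binomial test, adjusted p = 0.0572), and the balance of the 2 arms differed (Fisher's exact test, adjusted p = 1.63e-13). Of 6 fibroblast and mesenchymal miRNAs, miR-199a-3p and miR-199b-3p carried the same counts, 174 and 301 reads, and are taken once here. Of the 5 then left, 4 were tested and had an adjusted p under 0.05 by the exact binomial test, 3 of them higher in HC-Exo, and miR-199a-5p and miR-199b-5p were called like miR-206-3p. Their sum went the other way, 1.53% in NC-Exo against 1.25% in HC-Exo, through the most abundant, miR-214-3p. Of 9 blood miRNAs, 8 were in the table and summed to 0.159% and 0.201%, a ratio of 1.27 (1.04 to 1.55), led by miR-150-5p, with 17 and 35 reads for the red cell marker miR-451a. Of the 4 tested, 1 had an adjusted p under 0.05, miR-223-3p, which was higher in HC-Exo, with 43 and 94 reads and a log2 ratio of 0.75 (exact binomial test, adjusted p = 0.0241). Few reads came from neural (2 of 4 in the table, 2 and 2 reads, led by miR-9-5p, with 0 and 1 reads of miR-124-3p), liver (1 of 2 in the table, 14 and 16 reads of miR-122-5p) and epithelial miRNAs (5 of 11 in the table, 9 and 7 reads, led by miR-429-3p). The part of other cells in the muscle miRNA differences was not tested.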

How the data were processed

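Small RNA from exosomes of each condition was made into a library with an Illumina kit and sequenced on an Illumina HiSeq instrument. Raw read counts for each mature miRNA were deposited by the authors and entered every test here, except a check on reads recovered from their normalized values. The submitters' processing notes name Bowtie2, mm9 and GRCm38 with no role. The counting tool, trimming and miRNA reference are not given in the sources used here, and mouse names for rat reads could misplace reads that differ between the species. The authors deposited normalized values too, in which 1 read of NC-Exo is a signal of 12.1 and 9.23 in HC-Exo. Divided by these factors, 100% of values were whole reads within 0.1, and 1 miRNA had another count than in the count table. The test on these recovered reads, chosen after the data were seen, called 16 miRNAs, 2 of them members. The authors' comparison table, with fold changes and p-values, was not used. The number of unmatched per-sample columns was 0.

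RPM are counts divided by the library total, and a library at 3 reads or fewer was set at 3 reads for a ratio. A t-test needs replicates and was not used here. Tests were checked on simulated data with known answers. Python 3.11.15 with scipy 1.17.1, numpy 2.4.6, pandas 2.3.3 and matplotlib 3.10.9 was used, and R 4.3.3 with edgeR 4.0.16 (TMM, upper quartile, exact test) and DESeq2 1.42.0 (size factors) for alternatives. Neighbours are from the RefSeq gene list of GRCr8. Named miRNAs were the members and some miRNAs of the following sets, not all of which are named. The sets were the 2 miRNAs nearest to each member with at least 10 reads in each library by log2 RPM, the 5 most abundant of each library, those at the limits, and the most abundant and the called of each marker list. Others were named after their values were seen. The members and lists were chosen with earlier results of these data known.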

Additional observations from a re-analysis of the deposited data

How the results depend on the processing

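No paired analysis was possible because each condition has 1 library, and no replicate could be left out. The number of muscle miRNAs called, 2, was also found with TMM scaling, DESeq2 size factors, the authors' normalized values, totals without miR-1a-3p, no filter on reads, at least 10 reads in each library, and reads recovered from the normalized values. It was 1 with upper-quartile scaling, 5 without the log2 limit, 5 with the log2 limit and no test, and 0 with edgeR's exact test at an assumed coefficient of variation of 0.1, 0.2 or 0.4. Without the log2 limit, 76 of all 340 passed. The reads recovered from the normalized values differ from the counts for 1 miRNA only, so that setting repeats nearly the same data and is not a separate check. Of the 5 members at the log2 limit with no test, the lowest, miR-133a-5p, ranked 39 of 340 by log2 ratio, so many miRNAs outside the list reached it too. Over all miRNAs, 16 calls became 8 with at least 10 reads in each library and 0 with edgeR's exact test. Of 55 log2 ratios of members under other scalings, 52 kept their direction and stayed called or uncalled. Among the uncalled, 6 fell below the log2 limit of 1, namely miR-133a-5p in 4 and miR-208a-3p in 2 of the 5 scalings. Reversed with upper-quartile scaling were miR-1a-3p, at -0.013, and miR-1a-2-5p, at -0.014, because that scaling shifted each log2 ratio by -0.12, and miR-499-5p, at 1.31, was no longer called. With a pseudocount of 5 reads miR-1a-2-5p was at -0.11, and the other 21 of 22 log2 ratios with a pseudocount of 0.5 or 5 reads kept their direction, although 5 fell below the log2 limit, all of uncalled miRNAs. Against totals without miR-1a-3p, the other members made up 0.891% of NC-Exo and 1.24% of HC-Exo, the denominator being smaller. The shares of main arms alone, 16.9% and 18.4%, and the arm test at 50 reads changed little or not at all. Depth limits the low members, of which 1 read is 7.51 to 9.75 RPM.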

Other observations

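Other miRNAs abundant in heart or striated muscle, both arms of miR-22, miR-378a, miR-486a and miR-486b, were all in the table and tested. Their sum was 3.98% of the reads in NC-Exo against 3.95% in HC-Exo, a ratio of 0.993 (95% exact interval 0.953 to 1.03), led by miR-378a-3p, from an intron of the mitochondrial coactivator gene Ppargc1b, with 2138 and 2568 reads. Of the 8, 1 had an adjusted p under 0.05, miR-378a-3p, which was lower in HC-Exo (log2 ratio -0.11, exact binomial test, adjusted p = 0.0401), and 0 were called. The rows of miR-486a and miR-486b carried the same counts, so their reads entered this sum and its interval more than once. With these rows taken once, the sum was 3.34% of the reads in NC-Exo against 3.28% in HC-Exo.

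The smooth muscle miRNAs miR-143 and miR-145a, 4 arms of which 3 were tested, summed to 2.34% of the reads in NC-Exo against 2.76% in HC-Exo, a ratio of 1.18 (1.12 to 1.24). miR-143-3p led, with 1596 and 2571 reads and a log2 ratio of 0.31 (exact binomial test, adjusted p = 6.28e-10). It was higher in HC-Exo, as was miR-145a-3p, with 35 and 81 reads and a log2 ratio of 0.83 (exact binomial test, adjusted p = 0.0211), and 0 of the list were called.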
